A study of Homo sapiens with 12 samples.

Results

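A set of 10 secreted or membrane-bound mediators of activated B cells were followed, namely the chemokines CCL3, CCL4, CCL17 and CCL22, the interleukins IL6 and IL10, the tumor necrosis factor family members TNF, LTA and LTB, and the growth factor TGFB1. They were chosen by name, as the rows of the count table whose Ensembl identifier maps to one of these symbols, and 10 of 10 were found among 58884 genes. The choice was made with earlier results of these data known, so the list is not independent of them. RNA was sequenced from U2932 and TMD8, both established human cell lines of diffuse large B-cell lymphoma (DLBCL) that the labels give as wild type. Cells were treated for 4 h with 20 µg/mL rituximab (R) or ofatumumab (OF), antibodies against the B-cell surface protein CD20, or with a human IgG1 isotype antibody as control, so every library, controls included, came from cells exposed to a human antibody. Each of the 6 conditions has 2 libraries, from 2 cultures of the line that had been kept apart for a week, so the spread between them is that of cultures of 1 line and says nothing of DLBCL in general.

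Chemokines such as CCL3 and CCL4 call in T cells, monocytes and NK cells, while CCL17 and CCL22 attract T-helper and regulatory T cells through CCR4. TNF and the lymphotoxins LTA and LTB are close relatives that signal through TNF receptors and the lymphotoxin beta receptor, and IL6, IL10 and TGFB1 act on growth, antibody production and the damping of immune responses. Many of these genes are switched on in B cells by the B-cell receptor, CD40 or Toll-like receptors through NF-kB, a pathway that is often active in DLBCL of the activated B-cell-like type.

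The libraries held 15440226 to 27110612 counts, and levels are given as CPM, counts scaled to a common library size, after TMM normalization over all 12 libraries. All 6 B-cell markers examined were expressed in both lines, with MS4A1, which encodes CD20, at 856.3 to 2348 CPM, whereas CD3D, CD3G, CD2, CD163, FCGR3A and NKG7 had 0 to 2 counts per library. Other markers of these cell types were detected, with CD14 at 5 to 17 counts and NCAM1 at 1 to 12 in U2932, and CSF1R at 1 to 11 and the stromal COL1A1 at 17 to 147 in TMD8. TRAC, a T-cell receptor chain, reached 6.70 to 9.16 CPM in U2932 without CD3D or CD3G. Of 4 genes listed as markers of activated B-cell-like DLBCL, CCND2 had 0 to 2 counts in U2932. The others were expressed there, IRF4 at 361 to 389.3 CPM, FOXP1 at 56.0 to 69.3 and PIM1 at 145.1 to 225.4. In TMD8, the second library with OF and the second with isotype stood apart, with 7.16% and 6.51% of their counts on ribosomal protein genes against 10.0% to 10.8% in the other 4. In U2932 this share was 4.74% and 4.44% in the isotype libraries and 6.03% to 6.56% in the 4 with R or OF, so it moved with the treatment there, and its part in the differences below was not tested. A gene was called when edgeR's quasi-likelihood test gave a Benjamini-Hochberg adjusted p under 0.1 over all genes tested and the difference was at least 1.5-fold, except that 0.3 was used for R against OF in U2932. Standard errors (SE) and intervals are on the log2 scale with 2 libraries a condition, for which no exact permutation test of 1 gene can go below p = 0.333.

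The lines had different cytokine profiles before any effect of the anti-CD20 antibodies was considered. With isotype, 10 of 10 genes differed between U2932 and TMD8 at the call, against 56.1% of the 16187 genes tested, and the median of the 10 was −0.05 beside −0.02 over all genes. CCL3, CCL4, LTB, LTA and TNF were higher in U2932, by 2.52 (SE 0.28), 2.24 (SE 0.24), 1.21 (SE 0.15), 1.14 (SE 0.21) and 1.07 (SE 0.16) on the log2 scale. IL6, CCL17, IL10, TGFB1 and CCL22 were higher in TMD8. For IL10 the difference of U2932 minus TMD8 was −3.31 (SE 0.32), for CCL17 −3.44 (SE 0.51), for TGFB1 −1.91 (SE 0.23) and for CCL22 −1.16 (SE 0.22). IL6 had only 1 to 3 counts per library in U2932, and its ratio of TMD8 to U2932 with isotype was 94.7, with a 95% interval of 36.7 to 349.3 for counting error only. The largest of these 10 adjusted p-values from edgeR's quasi-likelihood test was 0.000826, for CCL22, and 10 of 10 genes were called without any 1 of the 12 libraries. Each line is a single line, so these are differences between U2932 and TMD8 and not between classes of lymphoma.

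To rank the genes within a line, CPM were divided by the length of the longest coding transcript in kilobases (kb). Over its 6 libraries, treated and control together, U2932 had CCL3 first at 29 ± 5.60 CPM per kb (SD, n = 6), followed by LTB at 19.7, CCL4 at 17.4, TGFB1 at 16.5 and TNF at 11.1. LTA at 6.62, CCL22 at 5.51, IL10 at 3.80, CCL17 at 1.35 and IL6 at 0.0747 CPM per kb came after. The ranges of neighbors in this order overlapped except from TNF to LTA, from IL10 to CCL17 and from CCL17 to IL6. TMD8 had TGFB1 first at 49.6 ± 16.4 CPM per kb (SD, n = 6), then IL10 at 34.1, LTB at 10.6, TNF at 9.35, CCL17 at 8.94, CCL22 at 7.91, IL6 at 6.85, LTA at 4.09, CCL3 at 2.31 and CCL4 at 1.73. There, neighbors overlapped except from IL10 to LTB, so TGFB1 and IL10 stood above the other 8 genes. This order depended on pooling the treated libraries. With isotype alone, LTB was first in U2932 at 25.0 CPM per kb, before CCL3 at 23.4, TGFB1 at 14.2, TNF at 11.8 and CCL4 at 11.5. In TMD8 with isotype CCL3, at 4.22, was above LTA, at 3.20, and CCL4 was last at 2.48.

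**Figure D1:**
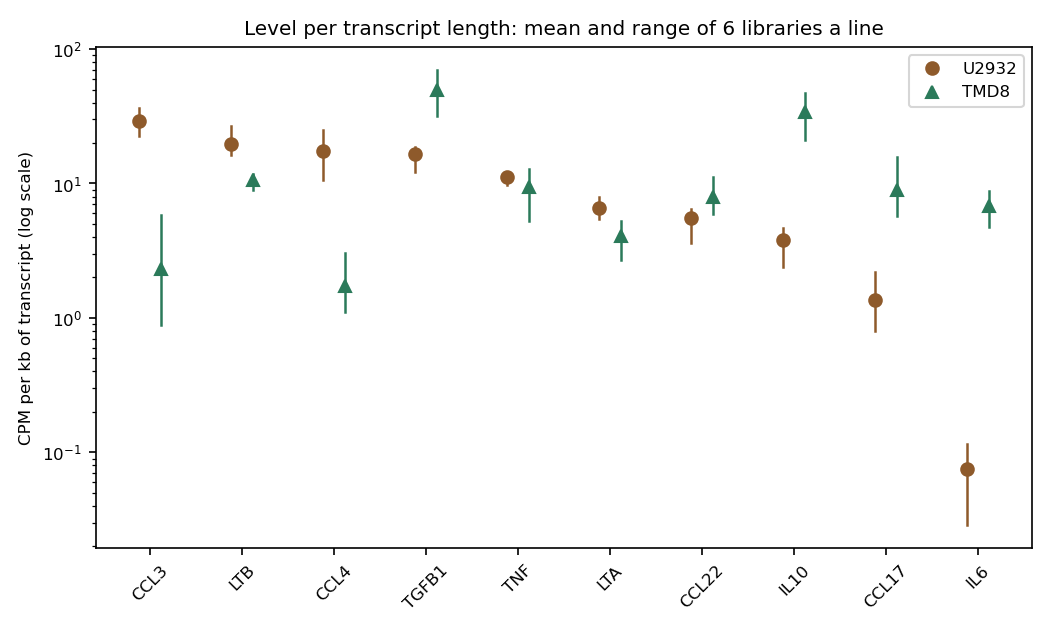
Level of each gene in CPM per kb of transcript (vertical axis, log scale), with the mean (symbol) and the range (line) of the 6 libraries of U2932 and of TMD8, ordered by the mean in U2932. CCL3 falls from 29 in U2932 to 2.31 in TMD8, whereas IL10 goes from 3.80 to 34.1 and IL6 from 0.0747 to 6.85.

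The comparisons with isotype ask what each antibody did to RNA levels within 4 h, and R and OF share the isotype libraries of a line, so their differences from isotype are not independent of each other. In U2932, R changed 5 of the 9 genes tested, with CCL3, CCL4, CCL22 and IL10 higher and LTB lower, against 10.2% of 14635 genes called. OF changed 3 of 9, with CCL4, CCL22 and IL10 higher, against 11.1% of 14635. IL6 was too low to be tested there. The median difference of the 9 genes was 0.44 for R and 0.39 for OF, beside −0.02 and 0.01 over all genes tested. Of all called genes 50.9% were higher with R and 53.1% with OF, and these shares were 28.8% and 35.1% when libraries were scaled by total counts alone, which moved the median of all genes with R to −0.12 in U2932 and −0.16 in TMD8, and that of the line difference to 0.11. In TMD8, 0 of 10 genes were called with R and 0 of 10 with OF by edgeR's quasi-likelihood test, against 0.647% and 0.815% of 14227 genes, whereas 3 genes with each antibody had an unadjusted p under 0.05 and DESeq2 called 1 and 2. The medians of the 10 were −0.28 with R and 0.16 with OF, beside −0.02 and −0.01 over all genes, and the share of called genes that were higher with R was 62.0% and was 39.4% with total counts alone. Libraries of the same number were taken to share a culture, which the labels do not state outright. Deviations of same-numbered libraries correlated at −0.05 to 0.10 in U2932. In TMD8 r was 0.69 for OF and isotype, whose second libraries stood apart, and 0.22 and 0.23 for the pairs with R. The culture was also fitted as a block. With replicates paired in this way 3 of 10 genes were called with R in TMD8, against 11% of all genes, and 2 of 10 with OF, against 9.75%. Pairing kept the 5 and 3 calls of U2932, whereas 1 fit of all 12 libraries, with a shared estimate of the spread, called only CCL4 and LTB with R and 0 genes with OF there. CCL3, CCL22 and IL10 with R were close to the 1.5-fold limit and went under it, at 0.49 to 0.58, in some of the alternatives. With OF, CCL4 and CCL22 went under it, both at 0.57, when libraries were scaled by total counts alone. After a correction for GC content CCL22 with OF was under it at 0.58, and LTB was called in its place. Without both TMD8 libraries that stood apart, a fit chosen after seeing the data that leaves 1 residual degree of freedom, OF and isotype have 1 library each, so OF is compared 1 against 1 with the spread taken from the R pair. In it 5 of 10 genes were called with each antibody, against 13.4% and 12.4% of genes: CCL3, CCL4 and CCL17 lower and LTA and TNF higher.

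**Figure D2:**
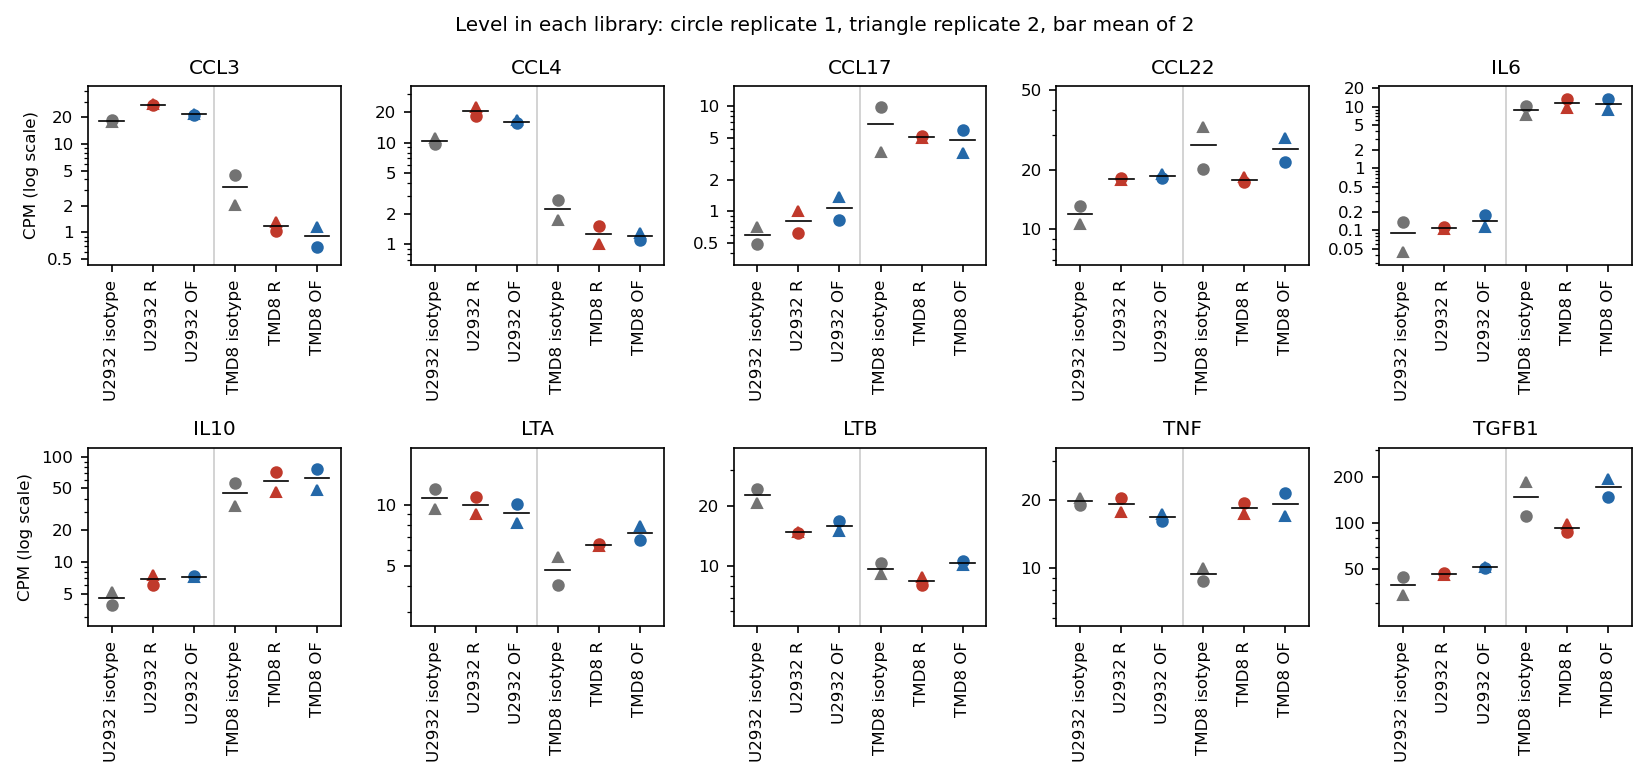
CPM of each gene (vertical axes, log scale, 1 panel a gene) in the 12 libraries, by cell line and antibody, with replicates 1 and 2 as circle and triangle and the mean of 2 as a bar. In U2932, both libraries with R lie above both isotype libraries for CCL3, CCL4, CCL22 and IL10 and below them for LTB, and in TMD8 the 4 libraries with R or OF lie above both isotype libraries for TNF, at 17 to 21.4 against 8.80 and 10.0 CPM.

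**Figure D3:**
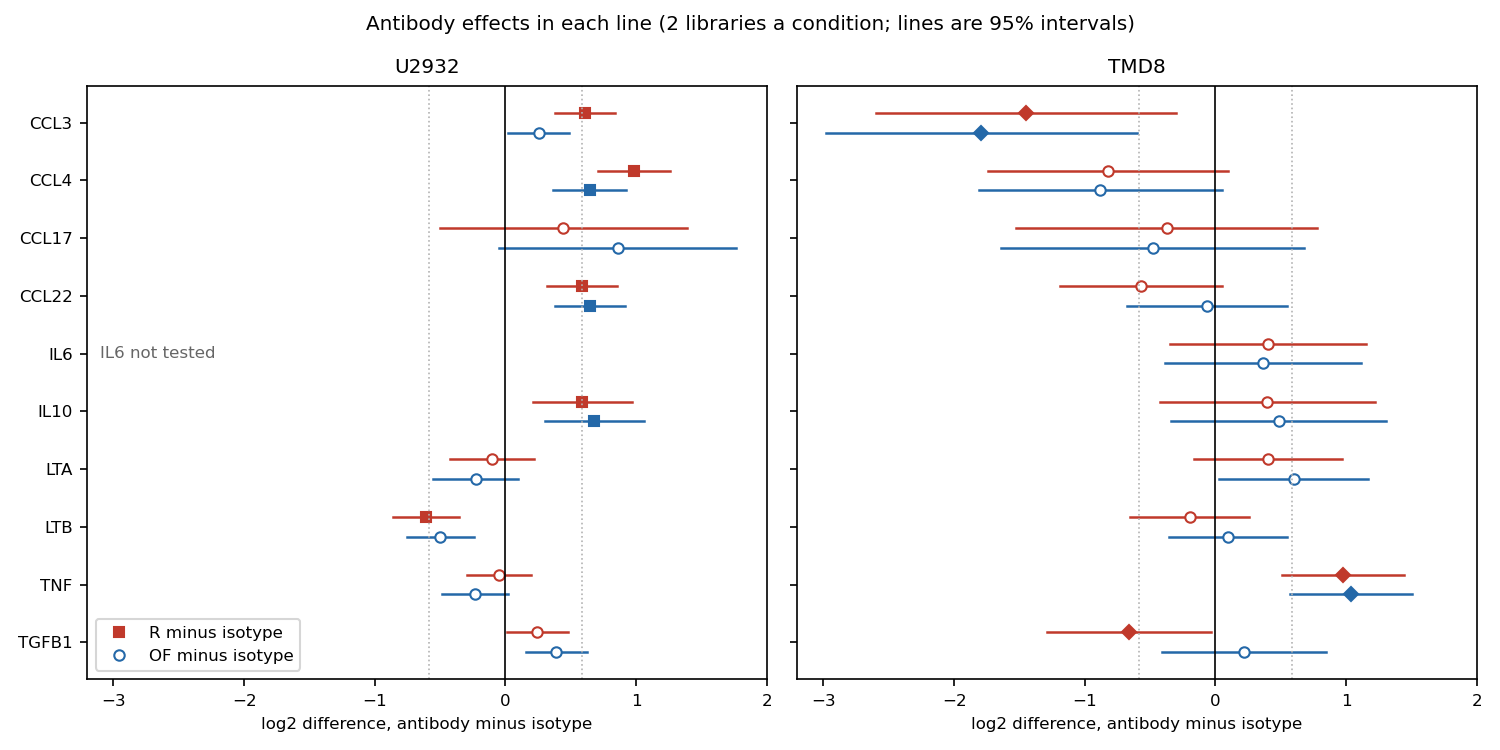
Log2 difference from isotype (horizontal axis) of each gene with R (red) and OF (blue) in U2932 and TMD8, with 95% intervals of the unpaired fit and dotted lines at 1.5-fold. Filled squares are called in that fit, filled diamonds only with replicates paired, and open circles in neither, and IL6 was not tested in U2932. CCL3 lies at 0.61 with R in U2932 and at −1.45 in TMD8.

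In GENCODE 29 (GRCh38), CCL3 (ENSG00000277632) is at chr17:36088256-36090169 and CCL4 (ENSG00000275302) at chr17:36103590-36105621. CCL3 and CCL4 encode the inflammatory chemokines MIP-1 alpha and beta and lie 13420 bases apart on chromosome 17 on opposite strands. In U2932, CCL3 had 27.3 and 28.3 CPM with R, 21.5 and 21.8 with OF and 18.8 and 17.7 under isotype. CCL4 had 18.4 and 22.7 CPM with R, 15.6 and 16.7 with OF and 9.62 and 11.1 under isotype. For both genes the conditions did not overlap and R was highest and isotype lowest. CCL3 rose by 0.61 (SE 0.11) with R, with an adjusted p of 0.000167 from edgeR's quasi-likelihood test, and its difference with OF was 0.26 (SE 0.11), under 1.5-fold. CCL4 rose by 0.98 (SE 0.13) with R and by 0.64 (SE 0.14) with OF, with adjusted p-values of 3.77e-06 and 0.000785 in edgeR's quasi-likelihood test. CCL4 was called with R without any 1 of the 6 libraries, CCL3 with R was under 1.5-fold without isotype replicate 2 (0.56), and CCL4 with OF without isotype replicate 1 (0.53). In TMD8 both genes were near the bottom of the range. CCL3 had 1.04 and 1.30 CPM with R, 0.687 and 1.16 with OF and 4.51 and 2.06 under isotype, or 10 to 79 reads a library. CCL4 had 1.5 and 0.994 CPM with R, 1.10 and 1.29 with OF and 2.74 and 1.74 under isotype. Here the isotype libraries were the highest, whereas in U2932 they were the lowest, and the libraries with R and OF overlapped. The difference of CCL3 from isotype in TMD8 was −1.45 (SE 0.48) with R and −1.79 (SE 0.50) with OF, with adjusted p-values of 0.229 and 0.192 in edgeR's quasi-likelihood test. With replicates paired CCL3 was called at −1.40 (adjusted p = 0.0813) and −1.73 (adjusted p = 0.0568), and CCL4, at −0.82 and −0.85, was not. When the GC content correction was added to pairing, edgeR's quasi-likelihood test no longer called CCL3 with R (−1.34, adjusted p = 0.1006). With OF it was still called (−1.75, adjusted p = 0.0546). DESeq2 called CCL3 with OF, at an adjusted p of 0.0702, but not with R, at 0.153. Unpaired, CCL3 was called with OF without isotype replicate 2 (−2.28, adjusted p = 0.0732), and without both libraries that stood apart CCL3 was called at −1.94 with R and −2.71 with OF, and CCL4 at −1.15 and −1.32. The difference of CCL3 was −2.12 in culture 1 and −0.66 in culture 2 with R, and −2.72 and −0.83 with OF.

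The 250 bases before the start of CCL3 in RefSeq, at chr17:36090144-36090393 of GRCh38.p14 on the minus strand, are shown because its differences had opposite signs in the lines. Those in TMD8 were called only in some of the fits. Promoters of 8 of the 10 genes were matched in that table, all but CCL4 and CCL17, and the first start listed for a gene was used. Capitals mark matches, on either strand, to the TATA box (TATAAA), AP-1 (TGANTCA), the cyclic AMP response element (TGACGTCA), the GC box (GGGCGG) or the NF-kB kB motif, where overlapping matches would be marked together.
CCL3: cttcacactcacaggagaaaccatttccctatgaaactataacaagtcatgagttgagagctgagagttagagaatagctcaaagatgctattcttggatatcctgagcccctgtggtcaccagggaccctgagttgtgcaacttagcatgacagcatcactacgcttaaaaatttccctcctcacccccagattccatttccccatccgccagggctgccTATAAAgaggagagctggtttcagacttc
The only match was a TATA box, 29 to 24 bases before the start. A TATA box was found in 3 of the 8 promoters, those of CCL3, IL10 and TNF, and in 11.1% of 27305 promoters of the same length. AP-1 and the cyclic AMP response element, in 6.6% and 1.77% of all promoters, had no match in these 8.

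CCL3 and CCL4 have near-identical copies beside them, CCL3L3 and CCL4L2, and reads of 1 copy can be counted for another, so the levels of the single genes are uncertain. In U2932, CCL4L2 had 10.8 and 13.5 CPM with R, 9.16 and 10.6 with OF and 5.77 and 5.83 under isotype, and CCL3L3 had 5.45 and 7.36, 5.37 and 5.18, and 3.31 and 3.42. The copies moved in the direction of the named genes. CCL4L2 rose by 1.07 (SE 0.16) with R and 0.78 (SE 0.16) with OF, and CCL3L3 by 0.93 (SE 0.20) and 0.65 (SE 0.20), with adjusted p-values in edgeR's quasi-likelihood test from 1.10e-05 to 0.0163. In TMD8, with 3 to 41 reads a library, the copies differed from isotype by −1.20 and −0.85 with R and by −1.70 and −2.19 with OF, none of which was called. After the counts of the copies were added to CCL3 and CCL4, pairing gave called falls in TMD8 for both genes with both antibodies (a fit chosen after seeing the data), at −1.23 and −0.95 with R and −1.88 and −1.13 with OF.

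CCL22 (ENSG00000102962) is at chr16:57358772-57366190 and CCL17 (ENSG00000102970) at chr16:57404767-57416062. CCL22 and CCL17 encode ligands of CCR4 and lie 38576 bases apart on chromosome 16, transcribed in the same direction. In U2932, CCL22 had 18.1 and 17.7 CPM with R, 18.1 and 19.1 with OF and 13.2 and 10.6 under isotype. It rose by 0.59 (SE 0.13) with R and 0.65 (SE 0.13) with OF, with adjusted p-values of 0.00120 and 0.000479 in edgeR's quasi-likelihood test, and the 2 antibodies overlapped. With R it was at the 1.5-fold limit, and the call was lost without R replicate 1, OF replicate 2 or isotype replicate 2 (0.44 to 0.58), as it was with OF without isotype replicate 2 (0.50). In TMD8 it had 17.2 and 18.3 CPM with R, 21.8 and 28.8 with OF and 20.1 and 32.9 under isotype, and the highest value of each of the last 2 conditions was in the library that stood apart. The difference with R there was −0.57 (SE 0.26) unpaired and −0.54 (SE 0.17) paired, which passed the adjusted p limit at 0.0806 but not 1.5-fold. CCL17 had 0.492 to 1.35 CPM in the 6 libraries of U2932, or 11 to 24 reads, and its differences of 0.44 (SE 0.46) with R and 0.86 (SE 0.44) with OF were not called. In TMD8 it lay between 3.55 and 9.71 CPM, and its 2 isotype libraries, at 9.71 and 3.66, spanned nearly that whole range. So its 2 isotype libraries differed by more than any pair of condition means. Unpaired with all libraries it was not called, and without both libraries that stood apart it was called at −0.94 with R and −0.73 with OF, where the isotype library kept is the one at 9.71 CPM. Without that library instead, its differences turned to 0.50 with R and 0.40 with OF.

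IL10 (ENSG00000136634) is at chr1:206767602-206772494 and IL6 (ENSG00000136244) at chr7:22725884-22732002. IL10, an anti-inflammatory cytokine that regulatory B cells secrete, had 6.06 and 7.57 CPM with R, 7.30 and 7.20 with OF and 3.89 and 5.17 under isotype in U2932. All 4 anti-CD20 libraries exceeded both controls, and IL10 rose by 0.59 (SE 0.18) with R and 0.68 (SE 0.18) with OF, with adjusted p-values of 0.0179 and 0.00632 in edgeR's quasi-likelihood test. The call with R was lost without R replicate 2, OF replicate 2 or isotype replicate 1 (0.39 to 0.58), and that with OF without isotype replicate 1 (0.48). In TMD8 IL10 was higher in every library, at 71.3 and 46.7 CPM with R, 76.6 and 48.8 with OF and 56.0 and 34.2 under isotype. IL6, a growth factor of activated B cells and plasma cells, had 13.5 and 9.38 CPM, 13.4 and 8.96, and 10.3 and 7.21 in the same libraries. For both interleukins the first culture was higher than the second under every antibody, so the conditions overlapped although each antibody library exceeded the isotype library of its culture. Within cultures 1 and 2 IL10 differed from isotype by 0.35 and 0.45 with R and by 0.45 and 0.51 with OF, and IL6 by 0.40 and 0.38 and by 0.38 and 0.31. With replicates paired, IL10 had adjusted p-values of 0.0692 and 0.0451 in edgeR's quasi-likelihood test at 0.41 (SE 0.12) and 0.49 (SE 0.12), under 1.5-fold, and IL6 had 0.157 and 0.221.

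**Figure D4:**
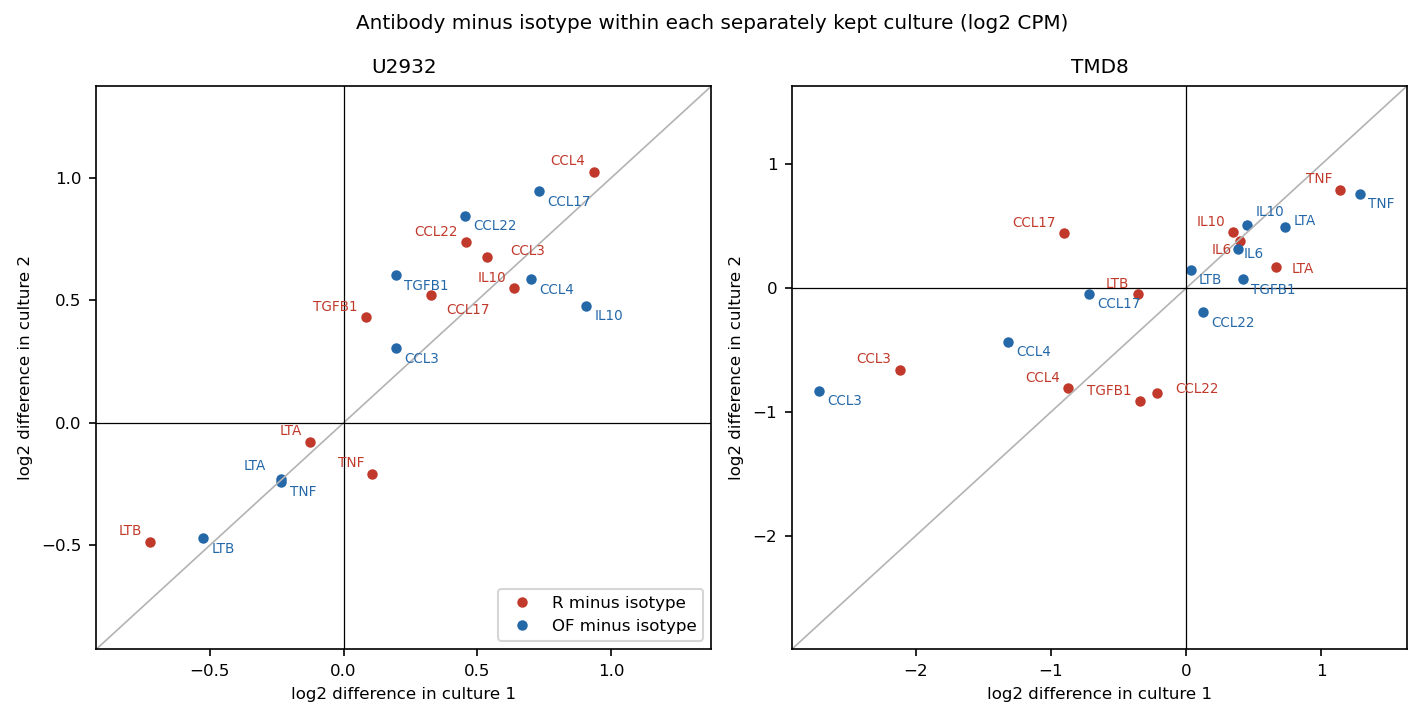
Difference from isotype in log2 CPM within culture 1 (horizontal axis) and culture 2 (vertical axis) of U2932 and TMD8, with R in red and OF in blue, and the line of equal values in grey; IL6 of U2932, with 1 to 3 counts a library, is left out. In TMD8, IL10 and IL6 lie near the line at 0.31 to 0.51, whereas CCL3 lies far from it at −2.72 and −0.83 with OF.

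LTA (ENSG00000226979, chr6:31572054-31574324), TNF (ENSG00000232810, chr6:31575567-31578336) and LTB (ENSG00000227507, chr6:31580525-31582522) form a cluster. They lie side by side on chromosome 6, with 1242 bases between LTA and TNF and 2188 between TNF and LTB, which is on the opposite strand. TNF, the central inflammatory cytokine of the family, had 20.6 and 17.8 CPM with R, 16.2 and 17.4 with OF and 19.1 and 20.6 under isotype in U2932, where differences of −0.05 (SE 0.12) and −0.23 (SE 0.12) were not called. In TMD8 it had 19.4 and 17.4 CPM with R, 21.4 and 17 with OF and only 8.80 and 10.0 under isotype. Thus TNF in TMD8 stood at the level of U2932 with either anti-CD20 antibody and below it with isotype. The differences of 0.97 (SE 0.20) with R and 1.04 (SE 0.20) with OF missed the call, with adjusted p-values of 0.113 and 0.110 in edgeR's quasi-likelihood test. With replicates paired they were called at 0.96 (adjusted p = 0.0135) and 1.02 (adjusted p = 0.0134), and DESeq2 called both without pairing, with adjusted p-values of 0.0112 and 0.00653. Unpaired, TNF was called with OF without isotype replicate 2 (1.12, adjusted p = 0.0866), and with both antibodies without the libraries that stood apart (1.05 and 1.27). Its difference was 1.14 and 0.80 in cultures 1 and 2 with R and 1.28 and 0.77 with OF.

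LTA, which forms a soluble trimer of its own or a membrane complex with LTB, was not called with either antibody in either line, unpaired or paired. In TMD8 it had 6.44 and 6.28 CPM with R, 6.73 and 7.87 with OF and 4.06 and 5.58 under isotype, and its difference with OF was 0.60 (SE 0.24), with an adjusted p of 0.330 in edgeR's quasi-likelihood test. Without both libraries that stood apart it was called at 0.64 with R and 0.72 with OF. In U2932 the conditions overlapped between 8.16 and 11.9 CPM. LTB, the membrane anchor of that complex, moved the other way from the chemokines in U2932, with 14.7 and 14.8 CPM with R, 16.8 and 14.9 with OF and 24.2 and 20.7 under isotype. It fell by 0.61 (SE 0.12) with R, a call lost without isotype replicate 1 (−0.50), and its difference of −0.50 (SE 0.12) with OF had an adjusted p of 0.00329 in edgeR's quasi-likelihood test but was under 1.5-fold. It was called without isotype replicate 2 (−0.61) and, with or without the replicate block, after the GC content correction (−0.69). Its transcript is 64.4% GC. In TMD8 LTB was between 8.06 and 10.6 CPM and no difference was called. Hence, of 3 neighboring genes, LTB was the member called in U2932 and TNF the member called in TMD8 with pairing.

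The promoters of LTB and TNF are shown since these neighbors moved in different lines. They are at chr6:31582426-31582675 on the minus strand and chr6:31575315-31575564 on the plus strand of GRCh38.p14, with matches in capitals as above.
LTB: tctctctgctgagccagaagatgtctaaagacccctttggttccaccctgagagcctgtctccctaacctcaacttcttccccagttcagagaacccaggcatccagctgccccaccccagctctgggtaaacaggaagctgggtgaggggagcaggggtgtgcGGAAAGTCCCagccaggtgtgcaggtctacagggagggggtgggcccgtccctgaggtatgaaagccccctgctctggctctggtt
TNF: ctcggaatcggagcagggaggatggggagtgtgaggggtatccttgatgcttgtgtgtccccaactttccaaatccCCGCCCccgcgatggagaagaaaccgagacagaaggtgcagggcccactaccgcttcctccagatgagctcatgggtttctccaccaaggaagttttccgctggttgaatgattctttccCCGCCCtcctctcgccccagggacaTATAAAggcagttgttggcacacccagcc
LTB had a match to the NF-kB kB motif 86 to 77 bases before its start, a motif that was in 3 of the 8 promoters, with CCL22 and IL6, and in 5.05% of 27305. TNF had a TATA box 29 to 24 bases before its start and GC boxes at 174 to 169 and 54 to 49 bases. A match is a run of letters and does not show that a factor binds there.

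TGFB1 (ENSG00000105329) is at chr19:41301587-41353911. It encodes a growth factor that is stored in latent form and restrains lymphocyte growth, and it had the highest mean CPM of the 10 genes in both lines. In U2932 it had 47.4 and 45.6 CPM with R, 51.2 and 51.4 with OF and 44.7 and 33.8 under isotype. The difference was 0.24 (SE 0.11) with R and 0.39 (SE 0.11) with OF, the second with an adjusted p of 0.0104 in edgeR's quasi-likelihood test but under 1.5-fold, and it was called without isotype replicate 1 (0.59). In TMD8 it had 87.4 and 98.2 CPM with R, 148 and 194 with OF and 111 and 185 under isotype. Both libraries with R were the lowest, and the highest values with OF and with isotype were those of the libraries that stood apart. The difference of −0.66 (SE 0.26) with R had an adjusted p of 0.293 in edgeR's quasi-likelihood test and was called with replicates paired, at −0.62 (SE 0.16, adjusted p = 0.0416), or unpaired without isotype replicate 1 (−0.97, adjusted p = 0.0931). With OF it was 0.22 (SE 0.26), and 0.24 (SE 0.15) when paired.

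GC content was examined for this result. The TGFB1 transcript is 63.5% GC, where the median gene tested in TMD8 is 48.5% GC, and after a correction for GC content the paired difference with R was −0.41 (SE 0.13, adjusted p = 0.0780), under 1.5-fold. Without both libraries that stood apart, which leaves 1 isotype library, the unpaired difference was −0.26. The part of these libraries and of GC content in the value was not tested further. In U2932, the paired difference of TGFB1 with OF was 0.40 (SE 0.10), and 0.21 (SE 0.08) after the correction for GC content. The 250 bases before the start of TGFB1, at chr19:41353923-41354172 of GRCh38.p14 on the minus strand, are shown because they are the richest in GC of the 8 promoters, at 76.8%.
TGFB1: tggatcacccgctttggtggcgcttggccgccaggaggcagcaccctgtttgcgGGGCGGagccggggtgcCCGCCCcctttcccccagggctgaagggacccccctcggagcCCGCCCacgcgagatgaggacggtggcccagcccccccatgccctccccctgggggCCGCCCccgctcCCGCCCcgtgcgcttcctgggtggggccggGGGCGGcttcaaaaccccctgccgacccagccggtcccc
They held 6 GC boxes and no match to the other 4 motifs, and a GC box was in 42.3% of 27305 promoters. The annotated gene also overlaps HNRNPUL1, CCDC97 and TMEM91 on the opposite strand, and since the strand of counting is not given in the sources used here, reads of overlapping parts cannot be told apart. The same holds for CCL3 and IL6, which overlap AC243829.4 and STEAP1B.

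R and OF bind different parts of CD20, and the comparison between them asks whether that difference is seen in RNA. By edgeR's quasi-likelihood test 0 of 9 genes were called in U2932, where 1 of 14635 genes was (0.00683%), and 0 of 10 in TMD8, where 0 of 14227 were (0%). DESeq2 also called 0 of these genes in each line, and 2 and 1 of them had an unadjusted p under 0.05. In U2932 these were CCL3 and CCL4, higher with R by 0.35 (95% interval 0.12 to 0.58) and 0.34 (0.07 to 0.61), with adjusted p-values of 0.910 in edgeR's quasi-likelihood test, and their libraries did not overlap. The intervals of CCL22, −0.32 to 0.20, and of TGFB1, −0.38 to 0.09, lay within 1.5-fold, as did those of IL10, LTA, LTB and TNF. In TMD8 it was TGFB1, lower with R by −0.88 (−1.51 to −0.25), with an adjusted p of 0.733 unpaired and 0.269 paired in that test. When paired and corrected for GC content, its difference was −0.51 (SE 0.13), under 1.5-fold, with an adjusted p of 0.650 in that test. Without a filter on low counts TGFB1 was called in that test, at −0.88 (adjusted p = 0.0733). Without both libraries that stood apart, a fit chosen after seeing the data, its difference was −0.67. That fit leaves 1 library with OF and so holds no spread between OF libraries. The paper that reported these libraries, which used DESeq2, names TGFB1 among the genes that OF raised preferentially over R in this line. The sign of TGFB1 was the same here, but DESeq2 did not call it, and why the calls differ was not tested. As the list was chosen with earlier results of these data known, TGFB1 is no independent check of that report. The interval of TNF in TMD8, −0.52 to 0.40, lay within 1.5-fold, and those of the other 8 genes reached past it, such as −0.97 to 1.65 for CCL3.

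Whether an effect differed between the lines was tested with all 12 libraries. Unpaired, 0 of 10 genes were called for R and 0 of 10 for OF by edgeR's quasi-likelihood test, against 0.321% and 0.105% of 16187 genes, and 5 and 6 of them had an unadjusted p under 0.05. The effect of R in U2932 minus that in TMD8 was 2.04 (SE 0.44) for CCL3, 1.80 (SE 0.36) for CCL4, 1.17 (SE 0.31) for CCL22, −1.01 (SE 0.22) for TNF and 0.92 (SE 0.32) for TGFB1, with adjusted p-values from 0.108 to 0.293 in that test. With replicates paired all 5 of these were called, against 4.76% of genes, with adjusted p-values from 0.0130 to 0.0345. For OF the paired test called CCL3 at 1.98 (SE 0.41), CCL4 at 1.51 (SE 0.31) and TNF at −1.25 (SE 0.21), against 2.19% of genes, and the largest of their adjusted p-values was 0.0450. DESeq2 called 4 and 3 of the 10 genes without pairing. So the estimated effects on CCL3 and CCL4 were positive in U2932 and negative in TMD8. Those on TNF were positive in TMD8 and near 0 or negative in U2932. In the fits of each line with all its libraries, CCL4 without its copies was not called in TMD8, unpaired or paired. CCL3 with OF in U2932 was under 1.5-fold, and CCL3 and TNF in TMD8 missed the call unpaired. The tests here are of the difference between lines and not of the sign within a line. Unpaired, several of these genes were called without 1 TMD8 library, the most being 5 for R without isotype replicate 1 and 3 for OF without isotype replicate 2. The difference between the lines in R against OF was called for 0 of 10 genes, unpaired and paired and by DESeq2, as for all 16187 genes (0%), and TGFB1, at 0.74 (SE 0.32), had an unadjusted p of 0.0405.

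The receptors of these ligands were expressed unevenly. LTBR, the lymphotoxin beta receptor, had 0 to 2 counts per library, CCR8 had 0, and CCR1, a receptor of CCL3, had 0 counts in U2932 and 24 to 98 in TMD8. TNFRSF1A, the main TNF receptor, had 65 to 123 counts in U2932 and 0 in TMD8, while TNFRSF1B was at 92.0 to 161.9 CPM in TMD8 and 41.5 to 50.4 in U2932. Of 11 receptors tested in U2932, 2 rose and 1 fell with R and with OF alike, beside 10.2% and 11.1% of all genes called. They were TNFRSF1A by 0.72 (SE 0.20) and 0.99 (SE 0.20), TNFRSF14 by 0.69 (SE 0.20) and 0.64 (SE 0.20), and CCR4, the receptor of CCL17 and CCL22, which fell by 1.03 (SE 0.26) and 0.96 (SE 0.26). In TMD8, 1 of 11 rose with R and 2 with OF, beside 0.647% and 0.815% of all genes called. CCR1 rose by 2.13 (SE 0.24) and 1.84 (SE 0.24), and TGFBR2, a receptor of TGFB1, by 0.92 (SE 0.16) with OF, and TGFBR2 was called with R too when replicates were paired, at 0.93 (SE 0.12). The medians of the receptors were 0.05 with R and 0.09 with OF in U2932 and 0.31 and 0.39 in TMD8, beside −0.02, 0.01, −0.02 and −0.01 over all genes.

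A list of 20 genes that store, activate or relay TGF-beta was examined beside TGFB1. In U2932, 0 of 18 tested were called with R and 1 with OF (beside 10.2% and 11.1% of all genes), namely ITGB8, an integrin subunit that frees latent TGF-beta, which fell by 0.67 (SE 0.14). The medians of the list were −0.11 with R and 0.01 with OF in U2932. TMD8 had medians of −0.06 and 0.18, and 0 of 18 were called with either antibody unpaired, and with replicates paired 1 rose and 3 fell with R and 4 rose and 2 fell with OF, beside 11% and 9.75% of all genes called. SMURF2, a ubiquitin ligase that limits the pathway, rose by 0.67 (SE 0.15) and 0.68 (SE 0.15), and LRRC32, which tethers latent TGF-beta to the cell surface, fell by 2.02 (SE 0.43) and 1.23 (SE 0.39). LRRC32 had only 9 to 106 counts a library in TMD8. Between the lines with isotype 11 of 19 were called, a share near the 56.1% of all genes. ITGB8 had 179 to 425 counts in U2932 and 0 to 3 in TMD8. LTBP1, which binds latent TGF-beta in the matrix, and ITGAV, the partner of ITGB8, were higher in U2932 by 4.86 (SE 0.24) and 2.16 (SE 0.18), and SMAD3, a transcription factor of the pathway, was lower there, at −2.76 (SE 0.27).

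Of 49 other cytokines and chemokines, 24 were tested in U2932 and 26 in TMD8. IL7, a growth factor of lymphoid precursors, and VEGFA, a growth factor of blood vessels, rose in U2932 by 1.45 (SE 0.27) and 1.08 (SE 0.13) with R and by 1.67 (SE 0.27) and 1.09 (SE 0.13) with OF. CXCL11, an interferon-induced chemokine, fell by 1.77 (SE 0.33) with R and 1.30 (SE 0.31) with OF, and CXCL16 by 1.27 (SE 0.35) and 0.76 (SE 0.33), and IL12A, a subunit of interleukin 12, rose by 0.80 (SE 0.35) with R. So 3 rose and 2 fell with R and 2 rose and 2 fell with OF, beside 10.2% and 11.1% of all genes called, with medians of 0.19 and 0.21. In TMD8, IL16 rose by 1.24 (SE 0.17) with R and 1.17 (SE 0.17) with OF and was the 1 gene called with each, beside 0.647% and 0.815% of all genes. Pairing, with 11% and 9.75% of all genes called, added IL7 at 1.33 (SE 0.14) and 1.21 (SE 0.14), VEGFA at 0.83 (SE 0.14) and 0.89 (SE 0.14), CXCL13, and CXCL10, which fell by 1.05 (SE 0.26) and 1.44 (SE 0.27), and TNFSF10 with OF, against list medians of −0.12 with R and 0.21 with OF.

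For each gene tested in both lines, the genes whose log2 CPM followed it most closely over the 12 libraries were found among 12722 genes. The mean of each line was subtracted first, so r describes shared deviations within the lines and not the difference between them. This is a description in which the points come from 2 lines and from libraries of unequal depth. For CCL3 they were IFI6 (r = 0.974) and USP18 (r = 0.943), both interferon-induced genes, for CCL4 HLA-F (r = 0.916), for CCL17 ARSK (r = 0.902) and for CCL22 COASY (r = 0.987). IL10 was closest to CDCA3 (r = 0.945), LTB to JUND (r = 0.900), an AP-1 subunit, LTA to CTPS1 (r = 0.916) after a gene without a symbol, TNF to UGDH (r = 0.960) and TGFB1 to ARHGDIA (r = 0.991), whose transcript is 64.7% GC. Over the 6 libraries of TMD8 alone, IL6 was closest to PPP1R14B-AS1 (r = 0.993), and IL10 was next with r = 0.988.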

How the data were processed

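Total RNA was extracted from 12 samples with Trizol, and libraries were made with a NEBNext Ultra II kit per the labels. The authors trimmed reads with Trim Galore 0.6.0 and aligned them with STAR 2.7.0e to GRCh38, per the submitters' processing notes, and deposited raw counts per Ensembl gene, which STAR made per the study's methods, without normalization; the strand setting of counting is not given in the sources used here. Each of the 12 columns was matched to a sample by its label, and 0 columns were left out. Symbols came from a name table (58472 of 58884 genes) and positions, lengths and GC content from GENCODE 29.

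Differences were tested with edgeR 4.0.16 under R 4.3.3 (TMM, filterByExpr with a minimum of 10 counts, quasi-likelihood test), per line with 6 libraries and 1 mean per antibody, and with all 12 for differences between lines. Library sizes of 15440226 to 27110612 and the spread between cultures set the precision. Values for single cultures were log2 ratios of CPM without a prior count. Correlations used log2 CPM with a prior count of 2. Genes named are the 10 members, their copies, the lists of receptors, TGF-beta genes and other cytokines, the marker lists and the closest genes by correlation. The members and lists were chosen with earlier results of these data known. The labels say that the cultures of a line were split and kept apart before treatment, so replicate numbers were taken to mark a culture and pair the samples of a line, and deviations of same-numbered libraries correlated at −0.05 to 0.10 in U2932 and 0.22 to 0.69 in TMD8. Alternatives were DESeq2 1.42.0, its size factors in edgeR, total counts only, other filters, a GC content correction (lowess, span 0.3), a replicate block, no fold limit, 12 libraries in 1 fit and fits without each library. Steps were tested on simulated data. Promoters were taken from RefSeq (GRCh38.p14) and figures were drawn with matplotlib 3.10.9.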

Additional observations from a re-analysis of the deposited data

Results flagged for a closer look

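In the paired fit of edgeR's quasi-likelihood test, the effect of R differed between the lines for 5 of the 10 genes and that of OF for 3. Of all 16187 genes tested, 4.76% and 2.19% were called in that fit. Unpaired, 0 and 0 of the 10 were called, beside 0.321% and 0.105% of all genes, so pairing raised the calls among all genes too. As U2932 minus TMD8 on the log2 scale, the paired difference for R was 2.01 for CCL3, 1.81 for CCL4, 1.14 for CCL22, −0.998 for TNF and 0.88 for TGFB1. For OF it was 1.98 for CCL3, 1.51 for CCL4 and −1.25 for TNF. CCL3 and CCL4 in TMD8 rest on 10 to 79 reads a library, and TGFB1 in TMD8 was highest in both libraries that stood apart. Without both libraries that stood apart, which leaves 1 isotype library in TMD8, the unpaired R effect was called for CCL3, CCL4, CCL22 and TNF. For TGFB1 it was 0.50, under 1.5-fold. With the replicate block and the GC content correction the R effect for TGFB1 was 0.60 (adjusted p = 0.0749), still called. The part of depth was not tested. When the copies were added to CCL3 and CCL4, their effects were called unpaired too, at 1.90 and 1.97 for R and 2.22 and 1.82 for OF.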

How the results depend on the processing

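The differences between the lines with isotype kept their direction and call in all alternatives run, except that IL6 was not tested with at least 10 counts in every library, where 9 of 9 were called, and CCL4 with R in U2932 kept its direction. TMD8 had few reads of CCL3 and CCL4, at 10 to 79 a library, which limits what could be detected there. Alternatives that add or remove genes, libraries or the fold limit change the counts by construction, and the cause of the other changes was not tested. Fits without 1 library leave that arm with 1 sample, assumed to vary like the others. The fits with the copies added and without the libraries that stood apart were chosen after seeing the data. The paired fit used the culture as replicate block within each line, and none could be made for the line difference because replicate numbers are not shared across lines. With DESeq2, the genes called were 702 for R against isotype in TMD8, 590 for OF against isotype in TMD8, 448 for the R effect between lines and 223 for the OF effect between lines, and the counts among the 10 were 1 for R against isotype in TMD8, 2 for OF against isotype in TMD8, 4 for the R effect between lines and 3 for the OF effect between lines. With DESeq2 size factors in edgeR, the genes called were 2 for R against OF in U2932, and the counts among the 10 were 1 for the OF effect between lines. With scaling by total counts only, the genes called were 0 for R against OF in U2932 and 25 for OF against isotype in TMD8, and the counts among the 10 were 2 for R against isotype in U2932, 1 for OF against isotype in U2932 and 1 for the R effect between lines, and reversed signs were −0.014 for CCL4 in R against OF in TMD8 and −0.019 for IL6 in R against OF in TMD8. Without a filter on low counts, the genes called were 5 for R against OF in U2932, 1093 for R against isotype in TMD8, 908 for OF against isotype in TMD8, 71 for R against OF in TMD8, 265 for the R effect between lines, 171 for the OF effect between lines and 1 for R against OF, between lines, and the counts among the 10 were 2 for R against isotype in U2932, 3 for R against isotype in TMD8, 2 for OF against isotype in TMD8, 1 for R against OF in TMD8, 5 for the R effect between lines and 3 for the OF effect between lines, and reversed signs were −0.013 for IL10 in R against OF, between lines. With at least 10 counts in every library, the genes called were 171 for R against isotype in TMD8 and 5432 for U2932 against TMD8 with isotype, and the counts among the 10 were 3 for R against isotype in U2932, 1 for the R effect between lines and 1 for the OF effect between lines. With the GC content correction, the genes called were 458 for R against isotype in TMD8, 439 for OF against isotype in TMD8 and 77 for the OF effect between lines, and the counts among the 10 were 3 for R against isotype in U2932, 1 for R against isotype in TMD8, 1 for OF against isotype in TMD8, 2 for the R effect between lines and 1 for the OF effect between lines, and reversed signs were 0.011 for LTB in R against OF in U2932, 0.015 for LTB in R against isotype in TMD8, −0.066 for LTB in OF against isotype in TMD8, −0.089 for IL6 in R against OF in TMD8, 0.080 for LTB in R against OF in TMD8, 0.061 for TNF in R against OF in TMD8, −0.018 for CCL3 in R against OF, between lines and −0.069 for LTB in R against OF, between lines. With the replicate block, the genes called were 3 for R against OF in U2932, 1565 for R against isotype in TMD8, 1387 for OF against isotype in TMD8, 770 for the R effect between lines and 354 for the OF effect between lines, and the counts among the 10 were 3 for R against isotype in TMD8, 2 for OF against isotype in TMD8, 5 for the R effect between lines and 3 for the OF effect between lines, and reversed signs were −0.0096 for IL10 in R against OF, between lines. With the replicate block and the GC content correction, the genes called were 2 for R against OF in U2932, 1389 for R against isotype in TMD8, 1361 for OF against isotype in TMD8, 406 for the R effect between lines and 410 for the OF effect between lines, and the counts among the 10 were 3 for R against isotype in U2932, 1 for R against isotype in TMD8, 2 for OF against isotype in TMD8, 5 for the R effect between lines and 4 for the OF effect between lines, and reversed signs were 0.011 for LTB in R against OF in U2932, 0.043 for LTB in R against isotype in TMD8, −0.053 for LTB in OF against isotype in TMD8, −0.089 for IL6 in R against OF in TMD8, 0.096 for LTB in R against OF in TMD8, 0.069 for TNF in R against OF in TMD8, −0.013 for CCL3 in R against OF, between lines and −0.080 for LTB in R against OF, between lines. Without the fold limit, the genes called were 5005 for R against isotype in U2932 and 5334 for OF against isotype in U2932, and the counts among the 10 were 6 for OF against isotype in U2932. With all 12 libraries in 1 fit, the genes called were 800 for R against isotype in U2932, 904 for OF against isotype in U2932, 0 for R against OF in U2932, 1359 for R against isotype in TMD8 and 1170 for OF against isotype in TMD8, and the counts among the 10 were 2 for R against isotype in U2932, 0 for OF against isotype in U2932, 3 for R against isotype in TMD8 and 2 for OF against isotype in TMD8. Without both TMD8 libraries that stood apart, the genes called were 1932 for R against isotype in TMD8, 1783 for OF against isotype in TMD8, 131 for R against OF in TMD8, 1609 for the R effect between lines and 703 for the OF effect between lines, and the counts among the 10 were 5 for R against isotype in TMD8, 5 for OF against isotype in TMD8, 1 for R against OF in TMD8, 6 for the R effect between lines and 4 for the OF effect between lines, and reversed signs were 0.11 for CCL22 in OF against isotype in TMD8, −0.21 for CCL17 in R against OF in TMD8, −0.23 for IL6 in R against OF in TMD8, 0.12 for IL6 in the R effect between lines, −0.032 for TGFB1 in the OF effect between lines and −0.41 for CCL3 in R against OF, between lines. With the copies added, reversed signs were −0.31 for CCL3 in R against OF, between lines. With the copies added and the replicate block, reversed signs were −0.31 for CCL3 in R against OF, between lines. Leaving out each library in turn gave counts of 2 to 9 genes for R against OF in U2932, 3 to 5 of the 10 for R against isotype in U2932, 0 to 522 genes for R against isotype in TMD8, 0 to 483 genes for OF against isotype in TMD8, 0 to 1 of the 10 for R against isotype in TMD8, 0 to 2 of the 10 for OF against isotype in TMD8, 0 to 651 genes for the R effect between lines, 0 to 179 genes for the OF effect between lines, 0 to 5 of the 10 for the R effect between lines and 0 to 3 of the 10 for the OF effect between lines. It reversed signs over ranges of −0.26 to 0.052 for IL10 in R against OF in U2932, −0.027 to 0.29 for LTA in R against OF in U2932, −0.26 to 0.055 for LTA in R against isotype in U2932, −0.16 to 0.058 for TNF in R against isotype in U2932, −0.26 to 0.34 for CCL4 in R against OF in TMD8, −0.25 to 0.37 for IL6 in R against OF in TMD8, −0.43 to 0.29 for IL10 in R against OF in TMD8, −0.22 to 0.13 for TNF in R against OF in TMD8, −0.35 to 0.33 for CCL22 in OF against isotype in TMD8, −0.22 to 0.54 for CCL17 in R against OF in TMD8, −0.93 to 0.50 for CCL17 in R against isotype in TMD8, −1.05 to 0.40 for CCL17 in OF against isotype in TMD8, −0.082 to 0.62 for TGFB1 in OF against isotype in TMD8, −0.0044 to 0.21 for LTB in OF against isotype in TMD8, −0.41 to 0.34 for CCL3 in R against OF, between lines, −0.36 to 0.33 for IL10 in R against OF, between lines, −0.27 to 1.21 for IL6 in the OF effect between lines, −0.68 to 0.79 for IL6 in the R effect between lines, −0.24 to 0.50 for TGFB1 in the OF effect between lines, −0.20 to 0.53 for IL10 in the R effect between lines, −0.20 to 0.56 for IL10 in the OF effect between lines and −0.033 to 1.38 for CCL17 in the R effect between lines, none of which was called in the unpaired test with all libraries.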
